A study of Mus musculus with 12 samples.

Results

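The 10 genes described here encode transcription factors and cofactors known for their part in chondrocyte hypertrophy: Runx1, Runx2, Runx3, Cbfb, Mef2a, Mef2c, Mef2d, Sp7, Trps1 and Hdac4. They were taken by symbol from the 35976 gene symbols of the deposited table of normalized counts. The table lists RefSeq transcripts, 106518 in all, and the 103 transcript rows of these symbols were summed per gene. The rule takes rows by symbol alone.

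RNA was sequenced from P3D8 and P3E3, clonal lines each grown from a single mouse digit fibroblast of the P3 region. P3D8 makes articular-type cartilage in culture and P3E3 makes hypertrophic-type cartilage, according to the study. Cartilage (P3D8/BMP9 and P3E3/BMP9) was aggregated in suspension for 4 days with BMP2 at 50 ng/ml, followed by 14 days with BMP9 at 50 ng/ml. Monolayer controls of the same clones received neither, and grew in EGF, PDGF and LIF with serum. All cultures began at passage 6, all cells carry the same lacZ marker, and each of the 4 groups has 3 libraries described as separate cultures. Each line is 1 clone, so a difference between lines cannot be told apart from a difference between any pair of clones.

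Runx2 is the master factor of osteoblasts and, with Runx3, drives chondrocytes into hypertrophy. Runx proteins bind DNA together with Cbfb, their common beta subunit. Mef2c and Mef2d also promote hypertrophy, and Hdac4, a class IIa histone deacetylase that holds Mef2 and Runx2 inactive, slows it. Sp7, also called Osterix, acts downstream of Runx2. Trps1 is a GATA-type zinc finger repressor that in mouse growth plates acts downstream of Ihh and PTHrP signalling and is mutated in human tricho-rhino-phalangeal syndrome.

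Each Runx gene has a distal and a proximal promoter, and the sequences are shown because the counted rows of Runx2 and Runx3 start at different ones. RefSeq promoter windows (GRCm38.p6, 250 bases before to 50 after a start) matched 8 of the 10 members, all but Sp7 and Trps1. The Runx motif TGTGGT, or ACCACA on the other strand, was searched on both strands and is in capitals. In the 3 distal windows it stands as a close pair, shown here in 30 bases read from the gene's own strand.
Runx1 distal: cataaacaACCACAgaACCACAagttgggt
Runx2 distal: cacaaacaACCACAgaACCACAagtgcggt
Runx3 distal: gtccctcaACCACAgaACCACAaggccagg

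The Runx1 stretch lies at chr16:92826025-92826054 and the Runx2 stretch at chr17:44814583-44814612, both on the minus strand and just downstream of the start. The Runx3 stretch lies at chr4:135120503-135120532 on the plus strand, 142 bases upstream of the start at its first base. Runx1 and Runx2 share an unbroken run of 22 bases here, and either of them shares 18 with Runx3. The pair occurred in 4 of 32851 promoter windows, the fourth being that of Gm16225, which overlaps the Runx3 window on the opposite strand. A single match was common: 16.8% of all windows held at least 1, 1.81% at least 2 and 0.183% at least 3. The Runx2 distal window held 3 matches, and no window of the other members outside the Runx family held any.

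The 250 bases upstream of the distal starts are given for the 2 Runx genes with reads. That of Runx2 covers chr17:44814628-44814877 (minus strand) and holds 1 match, and that of Runx3 covers chr4:135120395-135120644 (plus strand) and holds the pair.
Runx2 upstream: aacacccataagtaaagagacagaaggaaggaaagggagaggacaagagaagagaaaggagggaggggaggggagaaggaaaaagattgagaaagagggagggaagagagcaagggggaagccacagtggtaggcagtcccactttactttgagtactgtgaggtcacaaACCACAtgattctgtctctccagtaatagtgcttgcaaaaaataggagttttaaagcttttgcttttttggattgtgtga
Runx3 upstream: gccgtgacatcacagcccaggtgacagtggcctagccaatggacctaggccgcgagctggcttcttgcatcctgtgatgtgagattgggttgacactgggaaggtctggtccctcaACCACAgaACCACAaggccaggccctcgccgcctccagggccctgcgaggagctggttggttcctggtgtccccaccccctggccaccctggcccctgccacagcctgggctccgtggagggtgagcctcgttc

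The libraries held 7269748 to 8662298 reads, recovered as whole numbers from the deposited values, and 1 read was worth 0.593 to 0.858 normalized counts. The cell line entry of 4 libraries, 1 in each group, names the other clone than the title, and libraries were grouped by title. Msx2 lay between 54.6 and 59.3 in all 3 P3D8/BMP9 libraries and between 0 and 1.65 in all 3 P3E3/BMP9 libraries, and Mgp between 1600 and 2202 in P3D8 monolayers and between 1.22 and 12.1 in P3E3 monolayers, so both genes separated the libraries by title. The summed level of chondrocyte markers was 724 to 921 in monolayers, 4167 to 4327 in P3D8/BMP9 and 7730 to 12133 in P3E3/BMP9. That of osteoblast markers was 3.65 to 40.4, 2689 to 3697 and 1826 to 2772 in the same order, although Dmp1 was at 0. All 5 endothelial markers were at 0 in every library, as were 6 of 8 blood and immune markers with Ptprc, Spi1 and Csf1r among them, and 5 of 8 muscle markers with Myod1 and Myog among them. The sums of 5 lists were also higher in cartilage. That of blood and immune markers was 1.96 to 6.43 in monolayers, 23.9 to 34.6 in P3D8/BMP9 and 68.9 to 106 in P3E3/BMP9, mostly from Lyz2. Neuron and glia markers reached 1289 to 1310 and 4101 to 4996, mostly from S100b, and adipocyte markers 393 to 424 and 208 to 264 with Plin1 and Pparg at 0. Tubb3, the other tested gene of the neuron and glia list, fell by a log2 of 4.00 in P3D8 (limma adjusted p = 7.29e-07). In P3E3 it did not pass (log2 0.43, limma adjusted p = 0.363). Fibroblast markers went from 131657 to 158574 to 1081112 to 1148361 in P3D8 and from 65332 to 67285 to 598344 to 693503 in P3E3. The list did not move as 1: of its 8 tested genes 6 rose and 1 fell in P3D8, and 7 rose and 1 fell in P3E3. Pdgfra fell in both (log2 -1.10 and -1.87, limma adjusted p = 0.00305 and 3.27e-05). Muscle markers went from 165 to 239 to 784 to 894 in P3D8 and from 295 to 486 to 517 to 630 in P3E3. Their part in the results was not tested. In these bulk samples more cells that express a gene and more RNA per cell cannot be told apart.

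Of the 103 transcript rows, 13 had a read in any library, and 2 members, Runx2 and Trps1, had a 12-library mean of 10 normalized counts or more, the minimum for a test. Runx2 had 20 rows and 1 with reads, Mef2c 23 rows and none, and Hdac4 17 rows and 2. Among genes with a curated mRNA row the mean was under 10 for 59.1% of 7242 genes with 1 row, 81.6% with 2 to 3, 91.8% with 4 to 9 and 93.3% of 1656 genes with 10 or more. The share at 0 in all libraries was 38.3%, 42.4%, 44.7% and 41.3% in the same order. How reads shared by several transcripts were counted is not given in the sources used here. The part of this in the low or 0 counts of members was not tested, and members are not ranked by level.

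**Figure D1:**
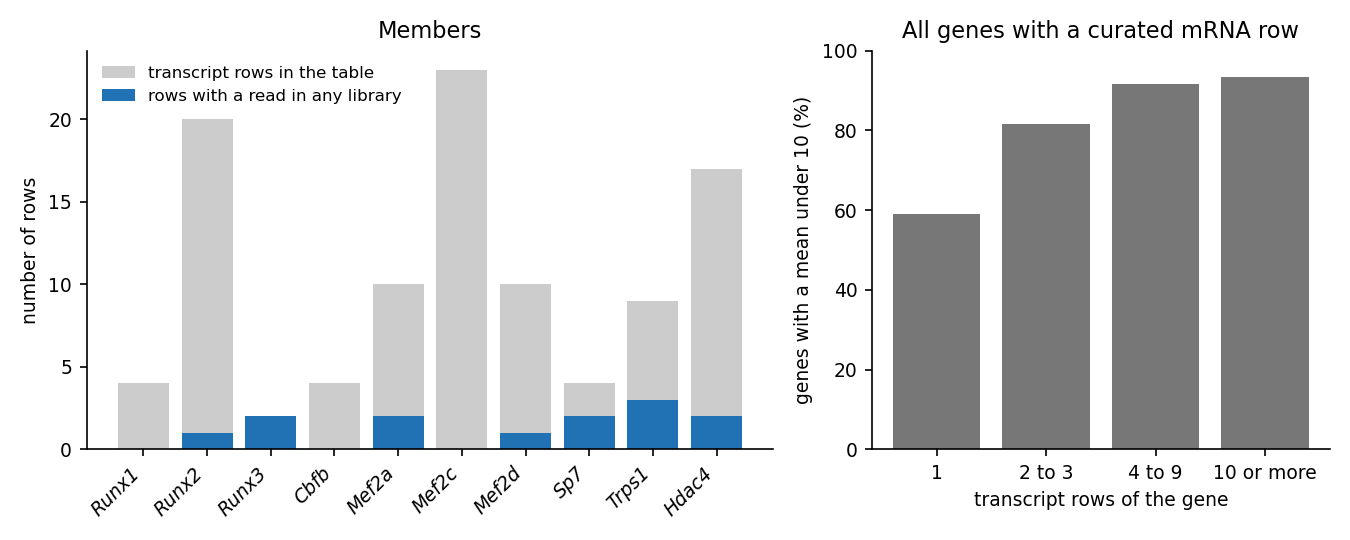
Left, transcript rows of each member in the table (grey, number of rows) and those with a read in any of the 12 libraries (blue). Right, the percent of genes with a mean under 10 normalized counts by number of transcript rows, for genes with a curated mRNA row, which rises from 59.1% to 93.3%.

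Runx2 was higher in cartilage of both clones. It is at chr17:44495987-44814797 (GRCm38.p6). It held 7.83, 7.07 and 8.69 normalized counts in the P3D8 monolayers and 45.5, 46.1 and 32.4 in P3D8/BMP9. In P3E3 it held 8.45, 4.74 and 9.14 in monolayer and 21.4, 28.9 and 23.2 in BMP9 cartilage. Every cartilage library lay above every monolayer library, and the lowest P3D8/BMP9 library lay above the highest P3E3/BMP9 library. Groups likewise did not overlap for 79.3%, 80.8% and 57.6% of the genes tested, for the P3D8 response, the P3E3 response and the cartilages.

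On the log2(normalized count + 1) scale Runx2 rose by 2.24 in P3D8 (SE 0.26, limma adjusted p = 2.09e-06) and by 1.63 in P3E3 (SE 0.26, limma adjusted p = 4.79e-05). Both calls held under all 22 alternatives run, with P3D8 changes from 1.84 to 2.47 and P3E3 changes from 1.26 to 1.87. Such calls were frequent: 37.6% of the 5294 genes tested were called higher in P3D8 cartilage and 41.6% in P3E3 cartilage. Both changes also passed a log2 threshold of 1.5, as did the rise of 18.9% and 21.4% of all genes tested. The 2 responses of Runx2 differed by 0.62 (95% interval -0.18 to 1.41, limma adjusted p = 0.190), which did not pass the test.

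Between the cartilages Runx2 was higher in P3D8/BMP9, with means of 41.4 ± 7.73 and 24.5 ± 3.92 normalized counts (SD, n = 3). The log2 difference was 0.72 (SE 0.26, limma adjusted p = 0.0331), in a comparison where 22.1% of genes were called higher in P3D8. The call was lost with no minimum on the mean (adjusted p = 0.0688), without the 4 libraries with conflicting entries (log2 difference 0.56, adjusted p = 0.232), and on leaving out P3D8/BMP9 replicate 1 or 2 or P3E3/BMP9 replicate 1 or 3 (adjusted p from 0.0705 to 0.109), in limma fits. In monolayer, where 49.8% of genes were called and neither tested member was, the clones differed by 0.11 (95% interval -0.45 to 0.67, limma adjusted p = 0.766).

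All 322 Runx2 reads fell on a single row, NM_001145920.2. GENCODE pairs it with transcript Runx2-203, which has 7 exons on the minus strand at chr17:44604001-44736648 and begins 78.0 kb inside the distal start whose sequence is printed above. Of its 6463 exonic bases, 472 are in no other GENCODE transcript of the gene, and all 472 lie in its first exon. The row thus starts at the proximal promoter, and the other 19 rows held no read. Among them are NM_001271630.1, paired with the same GENCODE transcript, and 4 rows whose paired transcripts begin at the distal promoter. Whether the distal transcripts were absent or their reads went uncounted was not tested.

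Runx3, which shares the hypertrophy role of Runx2 in mice, followed another pattern. It is at chr4:135120645-135177990, and its mean of 3.90 lay below the minimum for the main test. It held 1.96, 3.21 and 0.621 normalized counts in P3D8 monolayers and 2.24, 3.30 and 2.37 in P3D8/BMP9. It held 1.21, 2.96 and 0.609 in P3E3 monolayers, against 12.3, 5.79 and 10.3 in P3E3/BMP9. The 3 P3E3/BMP9 libraries lay above the other 9. For 46.5% of genes with a mean of 1 to under 10 the P3E3 groups did not overlap either, and for 28.1% the cartilages did not.

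With no minimum, limma gave a log2 change of 2.06 for Runx3 in P3E3 (adjusted p = 0.00210) and 0.41 in P3D8 (adjusted p = 0.547). In that fit 33.3% of 18148 genes were called in P3E3 and 34.8% in P3D8. The P3D8/BMP9 level was lower than that of P3E3/BMP9 by limma with no minimum (log2 difference -1.48, adjusted p = 0.0385, 18.1% of genes called). edgeR on the recovered reads of 9537 genes with a mean of at least 1, chosen after seeing the data, gave adjusted p = 0.00108 for the P3E3 response and 0.0154 between cartilages, where it called 62.3% and 33% of those genes. The difference of the responses did not pass in limma (log2 -1.65, adjusted p = 0.129) or edgeR (adjusted p = 0.123). The group totals were 9, 10, 8 and 35 reads, so these values rest on few reads. Without the 4 libraries with conflicting entries the P3E3 change was 1.57 and the difference between cartilages -1.20.

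Of the Runx3 reads 95.2% fell on row NM_019732.2, which GENCODE pairs with Runx3-201 on the plus strand at chr4:135120652-135177990 with 6 exons and begins at the distal start. The counted rows of Runx2 and Runx3 therefore start at opposite kinds of promoter. Of the 3884 exonic bases of Runx3-201, 2321 are in no other GENCODE transcript of the gene, and 512 of these lie in its first exon. Which promoter the reads came from was not tested. Runx1, with 4 rows at chr16:92601466-92826074, and Cbfb, with 4 rows at chr8:105170674-105217989, held no read in any of the 12 libraries. A count of 0 allows up to 3 reads in a library, for counting error only.

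Sp7, the osteoblast and hypertrophic chondrocyte zinc finger factor downstream of Runx2, was read in cartilage only. It is at chr15:102356603-102367035. It was at 0 in all 6 monolayer libraries, and held 5.97, 4.94 and 4.75 normalized counts in P3D8/BMP9 and 3.06, 4.13 and 3.43 in P3E3/BMP9. The cartilage totals were 20 and 13 reads. Against a floor of 3 reads over the monolayer group, the observed mean was 8.17-fold higher in P3D8/BMP9 and 5.89-fold higher in P3E3/BMP9. These values are not lower limits, since they leave out the counting error of the cartilage reads. Its 95% interval was 12.2 to 30.9 reads in P3D8/BMP9 and 6.92 to 22.2 in P3E3/BMP9.

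The cartilage and monolayer groups of Sp7 did not overlap in either clone. That held for 52% of genes with a mean of 1 to under 10 in P3D8 and for 46.5% in P3E3. The adjusted p for Sp7 was 2.46e-05 and 0.000167 by limma with no minimum, and 0.000179 and 0.000629 by edgeR on recovered reads, for P3D8 and P3E3. edgeR called 61.7% of its genes in P3D8. The lowest P3D8/BMP9 library lay above the highest P3E3/BMP9 library, but the difference did not pass in limma with no minimum (log2 0.45, adjusted p = 0.442). The cartilages likewise did not overlap for 28.1% of genes with a mean of 1 to under 10. Row XM_006520518.3, a predicted transcript, held 93.9% of the Sp7 reads.

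**Figure D2:**
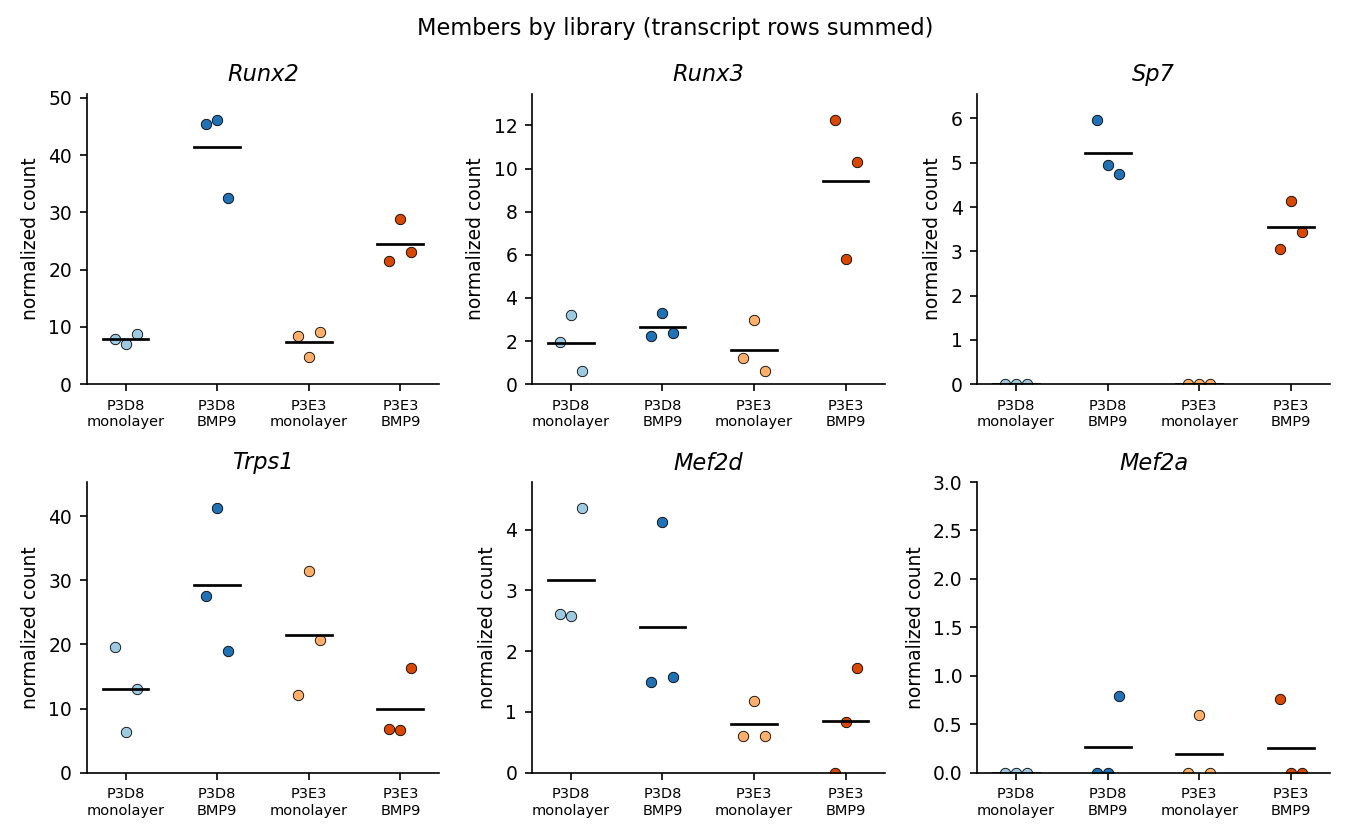
Normalized count of 6 members (y axis, linear, a separate range in each panel) in the 12 libraries, with points for single libraries and a bar for the group mean of 3. Runx2 and Sp7 are higher in both cartilages, Runx3 in P3E3/BMP9, and Trps1 has its highest mean in P3D8/BMP9. Hdac4 had 2 reads in all, and Runx1, Cbfb and Mef2c none.

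The Mef2 factors and Hdac4 lay below the minimum of the main test. Mef2d, at chr3:88141941-88172091, held 2.61, 2.57 and 4.35 normalized counts in P3D8 monolayers and 1.49, 4.12 and 1.58 in P3D8/BMP9. It held 0.604, 1.19 and 0.609 in P3E3 monolayers and 0, 0.827 and 1.72 in P3E3/BMP9. The P3D8 and P3E3 monolayers did not overlap for Mef2d, as for 22.9% of genes with a mean of 1 to under 10. The difference between them did not pass in limma with no minimum (log2 1.20, adjusted p = 0.124) or in edgeR (adjusted p = 0.0685).

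The Mef2d values for cartilage against monolayer did not pass in the same limma fit either, in P3D8 (log2 -0.36, adjusted p = 0.612) or P3E3 (log2 -0.06, adjusted p = 1). Its 31 reads all fell on 1 of 10 rows. Mef2a, at chr7:67231163-67376456, had 3 reads in 3 libraries of 3 groups, and Hdac4, at chr1:91928779-92195702, had 2 reads, 1 in P3D8/BMP9 and 1 in P3E3 monolayer. Mef2c, at chr13:83504017-83667079, had none on its 23 rows. A difference in these 3 genes was not detectable at this depth.

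Trps1 moved in opposite directions in the clones. It is at chr15:50654757-50890631. It held 19.6, 6.43 and 13.0 normalized counts in P3D8 monolayers and 27.6, 41.2 and 19.0 in P3D8/BMP9. In P3E3 it held 12.1, 31.4 and 20.7 in monolayer and 6.89, 6.61 and 16.3 in BMP9 cartilage. Monolayer and cartilage overlapped in each clone, while the lowest P3D8/BMP9 library lay above the highest P3E3/BMP9 library. The cartilages likewise did not overlap for 57.6% of the genes tested.

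In P3D8 Trps1 rose by 1.16 on the log2(normalized count + 1) scale (SE 0.45, limma adjusted p = 0.0295). In P3E3 it fell by 1.05 (SE 0.45, limma adjusted p = 0.0448), where 38.1% of genes were called lower. Neither call was firm. The P3D8 call was lost without P3D8 monolayer replicate 2 (limma adjusted p = 0.145) and without P3D8/BMP9 replicate 1 or 2 (0.0604 and 0.122). Without the 4 libraries with conflicting entries the limma adjusted p was 0.122 in P3D8 and 0.269 in P3E3. The P3E3 call was lost with no minimum (limma adjusted p = 0.0705) and on leaving out any of 6 libraries, P3D8 monolayer replicate 3, P3D8/BMP9 replicate 1, P3E3 monolayer replicate 2 or 3 and P3E3/BMP9 replicate 1 or 2 (limma adjusted p from 0.0539 to 0.186).

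The difference of the 2 Trps1 responses was tested on its own and was 2.21 (SE 0.64, 95% interval 0.85 to 3.58, limma adjusted p = 0.0112). In that comparison 18.6% of genes were called in the same direction, 5.06% with a log2 difference of at least 1.5. The call held on leaving out each of the 12 libraries, with differences from 1.81 to 2.60. It was lost without the 4 libraries with conflicting entries, where the difference was 2.07 and the limma adjusted p was 0.115.

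Between cartilages Trps1 was higher in P3D8/BMP9, at 29.3 ± 11.2 against 9.94 ± 5.52 normalized counts (SD, n = 3). The log2 difference was 1.51 (SE 0.45, limma adjusted p = 0.0124), and 4.89% of genes were called higher in P3D8 by at least 1.5. It was lost without P3D8/BMP9 replicate 2 (limma adjusted p = 0.0621), without P3E3/BMP9 replicate 2 (0.0530) and without the 4 libraries with conflicting entries (0.141). The monolayers differed by -0.70 (95% interval -1.67 to 0.27, limma adjusted p = 0.217). The study picked Trps1 from these same cartilage libraries, so its difference between cartilages is not independent evidence. Nor is the difference of its responses, which contains that between cartilages.

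Row NM_032000.2, which GENCODE pairs with Trps1-202 on the minus strand at chr15:50654752-50889691, held 96.2% of the Trps1 reads. As a single row it changed by 1.11 in P3D8 (limma adjusted p = 0.0334) and by -1.23 in P3E3 (limma adjusted p = 0.0190), where 76.3% and 79.7% of transcript rows were called.

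**Figure D3:**
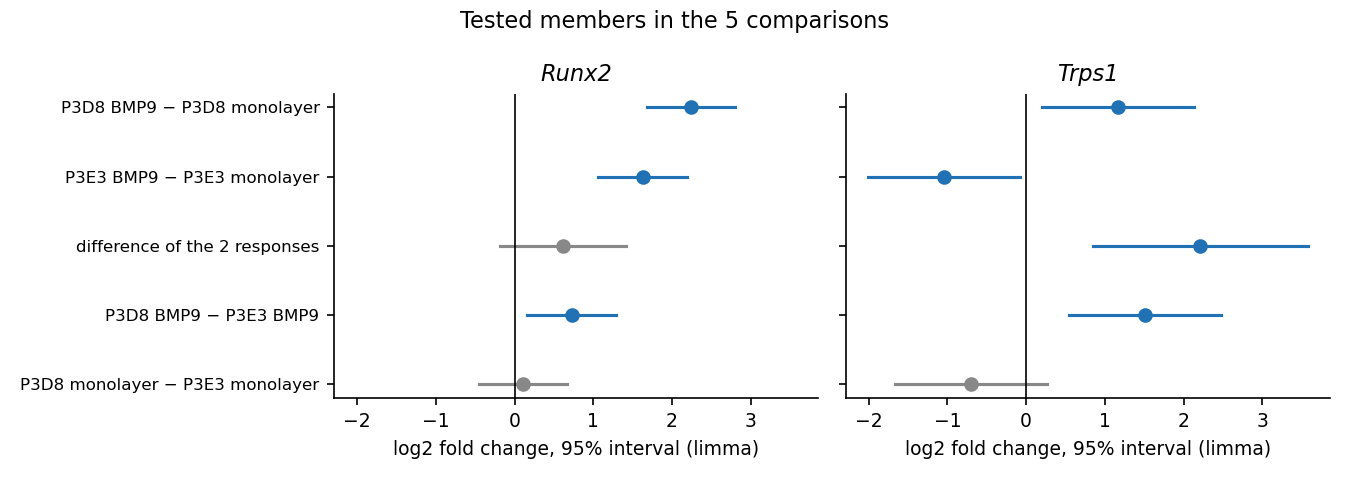
Log2 fold change of Runx2 and Trps1 (x axis) in the 5 comparisons (y axis), with 95% intervals from limma over 12 libraries. Blue marks an adjusted p under 0.05 and grey one that missed it. The 2 responses have the same sign for Runx2 (2.24 and 1.63) and opposite signs for Trps1 (1.16 and -1.05).

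The genes whose log2 levels followed Runx2 most closely over the 12 libraries, among 4693 tested genes with an assigned name, were Enpp2 (autotaxin, which makes lysophosphatidic acid), Per3, a clock gene, and the protocadherin Pcdhb11. Their Pearson r was 0.980, 0.978 and 0.976. For Trps1 they were Lonp2, a peroxisomal protease, Thsd7a and Fmn1, a formin needed for limb patterning, at 0.924, 0.921 and 0.908. These are descriptions over libraries that share the 4 groups, and carry no test.

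The partners of the members were read from 6 lists. Over all genes tested 37.6% rose and 38.7% fell in P3D8 cartilage, and 41.6% rose and 38.1% fell in P3E3 cartilage, and the counts below are descriptions beside these shares. Of 14 genes of the Mef2 and class IIa deacetylase axis, 2 were tested, and Hdac5, Hdac7 and Hdac9 were not. Hdac5 held 9 reads in P3D8 monolayers, 32 in P3D8/BMP9, 3 in P3E3 monolayers and 15 in P3E3/BMP9. Its normalized counts were higher in cartilage than in monolayer without overlap in both clones. Groups likewise did not overlap for 52% (P3D8) and 46.5% (P3E3) of genes with a mean of 1 to under 10. The Hdac7 groups overlapped in both clones, and Hdac9 had 1 read, in a P3E3 monolayer. Sik1, a kinase of the family that phosphorylates class IIa deacetylases and keeps them out of the nucleus, fell by 0.56 in P3D8 and by 2.05 in P3E3 cartilage (limma adjusted p = 0.000170 and 1.54e-10). Its mean was 391 ± 21.5 normalized counts in P3D8/BMP9 and 213 ± 17.8 in P3E3/BMP9 (SD, n = 3). The corepressor gene Ncor1 fell by 0.67 in P3E3 (limma adjusted p = 0.000584) and had a log2 value of 0.23 in P3D8 (adjusted p = 0.151). The median of the 2 tested genes was -0.17 in P3D8 and -1.36 in P3E3, against -0.03 and 0.07 over all genes tested. It does not describe the untested genes of this list.

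Of 24 partners and modifiers of Runx proteins 6 were tested. In P3D8 cartilage 3 rose and 3 fell, and in P3E3 3 rose and 2 fell, with medians of 0.01 and 0.12 against -0.03 and 0.07 over all genes tested. Hey1, among those that rose, had means under 10 in monolayers of both clones and was tested only through cartilage. The counts and medians therefore support nothing. Hey1, a Notch and BMP target that binds Runx2, rose most, from 1.29 to 1.86 normalized counts to 626 to 815 in P3D8 and from 3.02 to 4.26 to 571 to 784 in P3E3 (log2 8.19 and 7.08). The bHLH factor Twist2, which binds the Runx2 DNA-binding domain, fell by 2.70 and by 2.03, and the cell cycle kinase gene Cdk6 by 1.52 and by 1.14. Twist1, its paralog with the same property, was higher in P3D8/BMP9 than in P3E3/BMP9 by 0.59 (limma adjusted p = 0.000184).

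Of 21 other transcription factors of hypertrophy and bone 9 were tested. In P3D8 cartilage 7 rose and 1 fell, and in P3E3 6 rose and 1 fell. The medians were 2.85 and 1.49, but Dlx3, Foxa3 and Msx2 had means under 10 in monolayers of both clones and were tested only through cartilage, so the counts and medians support nothing. Dlx3, a homeobox factor of bone and skin, went from 0 to 1.29 normalized counts in P3D8 monolayers to 1171 to 1435 in P3D8/BMP9, and from 0.604 to 3.04 to 960 to 1331 in P3E3 (log2 9.74 and 8.65). Foxa3, a forkhead factor that acts with Foxa2 in hypertrophic chondrocytes, rose by 4.60 and 5.51, and Epas1, which encodes HIF-2 alpha, by 4.36 and 5.63. Sox9, the chondrocyte master factor, rose by 2.31 and 2.50.

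Msx2, a BMP-induced homeobox factor, rose by 4.87 in P3D8 (limma adjusted p = 5.79e-07). In P3E3 it had 2 reads in cartilage and none in monolayer (log2 0.47, limma adjusted p = 0.403). Between cartilages it differed by 5.39 (limma adjusted p = 1.14e-06), and the study picked it too from these libraries. Nkx3-2, a repressor of Runx2 in mouse chondrocytes, rose by 2.85 in P3D8 and by 1.33 in P3E3. It began lower in P3D8 monolayers (log2 difference -1.47) and ended at 426 ± 14.7 against 412 ± 35.3 normalized counts (SD, n = 3), and its 2 responses differed by 1.52 (limma adjusted p = 5.00e-06).

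Of 22 targets in hypertrophic chondrocytes and osteoblasts 13 were tested. In P3E3 cartilage all 13 tested rose, and in P3D8 9 rose and 2 fell. The medians were 7.47 and 3.81, or 7.98 and 3.81 with genes at 0 in monolayer set to their bound. These counts and medians support nothing, because 7 of the 13 (Col10a1, Ihh, Ibsp, Bglap, Bglap2, Panx3 and Sost) had means under 10 in monolayers of both clones and were tested only through cartilage. By the test of the difference the response was larger in P3E3 for 8 of the 13 and in P3D8 for none, where 27.6% and 18.6% of all genes passed in those directions, and edgeR on the reads called 5 of the 13, all in the direction of P3E3. In the monolayers, however, 6 of the 13 were already higher in P3D8 and none lower, where 26.6% of all genes were higher. In the cartilages themselves 4 were higher and 5 lower in P3D8, where 22.1% and 28.3% of all genes were. Without the 4 libraries with conflicting entries 6 of the 13 passed the test of the difference, all in the direction of P3E3. The counts from this test support nothing either. The 8 include Ihh, Panx3 and Sost, tested only through cartilage, and Ihh, Mmp13 and Sost, which the study picked from these libraries. All 8 osteoblast markers belong to this list of 22, so their sums, given above, are not a separate measure. Chondrocyte marker sums, also given above, were highest in P3E3/BMP9, and their part in these counts was not tested.

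Panx3, a pannexin channel of prehypertrophic chondrocytes and osteoblasts and a Runx2 target in mouse, was at 0 in all 6 monolayers. It reached 1510 to 1650 normalized counts in P3D8/BMP9 and 12779 to 13897 in P3E3/BMP9, a log2 difference of -3.08 between the cartilages (limma adjusted p = 8.96e-10). Col10a1, the collagen X gene that defines hypertrophy, reached 3682, 7033 and 9738 in P3D8/BMP9 and 2233, 12873 and 28246 in P3E3/BMP9. These groups overlapped, and the log2 difference was -0.56 (SE 0.67, limma adjusted p = 0.513). The study's own evidence is protein staining, which found no collagen X in P3D8 cartilage and found it in P3E3 cartilage. That staining was of cultures of other lengths, and the values here are of RNA. How the RNA relates to the protein was not tested. Bglap, the osteocalcin gene, reached 1255 ± 101 and 819 ± 79.7 (SD, n = 3). The secreted bone inhibitor Sost was lower in P3D8/BMP9 (log2 difference -2.34, limma adjusted p = 3.86e-05). So was Ihh, the hedgehog ligand of prehypertrophic chondrocytes (log2 difference -3.48, limma adjusted p = 0.00127).

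Other targets differed before cartilage formed. Mgp, an inhibitor of calcification, was at 1600 to 2202 normalized counts in P3D8 monolayers and at 1.22 to 12.1 in those of P3E3, and it rose in P3E3 cartilage to 2823 to 4903 (log2 9.37) but not past the test in P3D8 (log2 -0.04, limma adjusted p = 0.945). Mmp13, the collagenase of hypertrophic cartilage, rose by 3.12 in P3D8 and by 7.47 in P3E3, from monolayers that differed by 2.83. Ihh, Mmp13, Sost and Gdf5 are further genes that the study picked from these libraries. Panx3 is in its list of genes higher in P3E3 than in P3D8 cartilage, from the same libraries. Their differences between cartilages are thus not independent evidence.

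**Figure D4:**
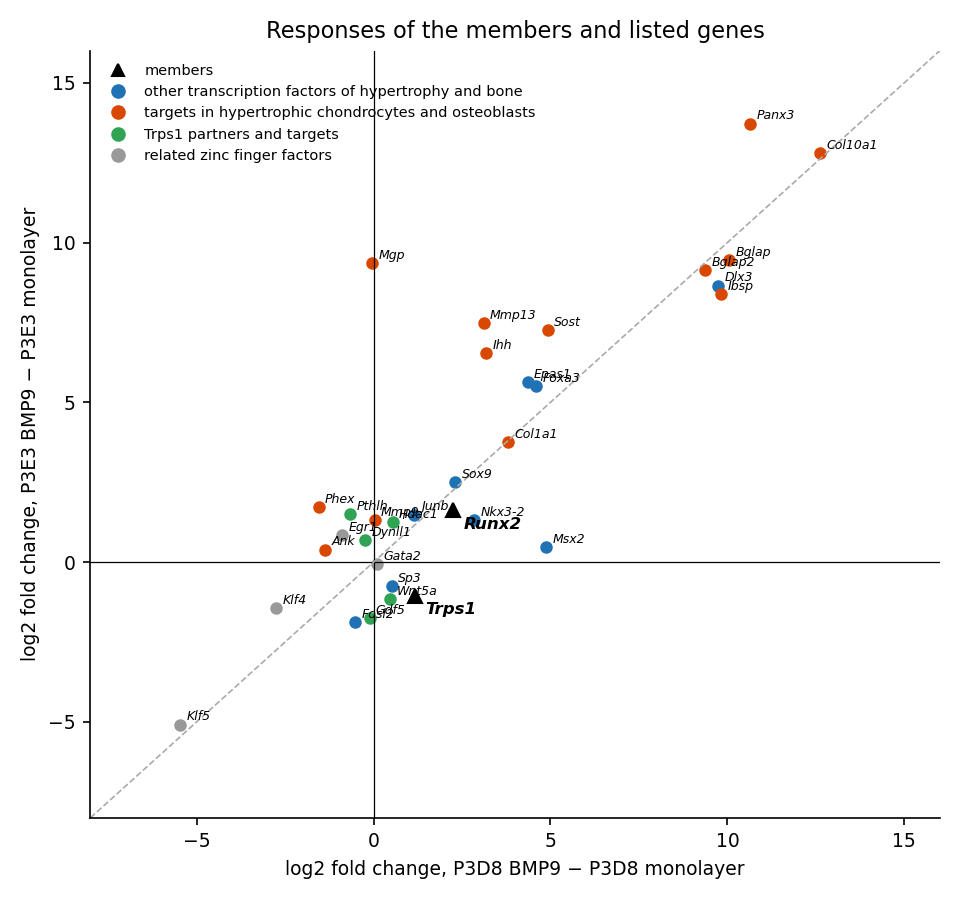
Log2 fold change from monolayer to BMP9 cartilage in P3D8 (x axis) and P3E3 (y axis) for Runx2 and Trps1 (triangles) and the tested genes of 4 of the lists (circles, coloured by list). The dashed line marks equal responses. Panx3, Mgp, Mmp13 and Ihh lie above it, Msx2 and Nkx3-2 below it, and Trps1 lies where the P3D8 value is positive and that of P3E3 negative.

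Of 8 genes linked to Trps1, as partners, targets or signals that act on it, 5 were tested. In P3D8 cartilage 1 rose and 2 fell, and in P3E3 3 rose and 2 fell, with medians of -0.11 and 0.69 against -0.03 and 0.07 over all genes tested. Pthlh, the PTHrP gene, fell by 0.67 in P3D8 (limma adjusted p = 0.0141) and rose by 1.51 in P3E3 (limma adjusted p = 2.00e-05). The responses differed by -2.18. These signs are opposite to those of Trps1, whose 2 calls were not firm. Between cartilages, however, Pthlh was higher in P3D8/BMP9 (log2 difference 0.73, limma adjusted p = 0.0143), as Trps1 was. Pthlh was also higher in P3D8 than in P3E3 monolayers (log2 difference 2.91). Its means were 61.5, 38.1, 7.22 and 22.7 normalized counts in P3D8 monolayer, P3D8/BMP9, P3E3 monolayer and P3E3/BMP9. Gdf5, a joint ligand whose signalling acts on Trps1 in mouse chondrocytes, fell by 1.74 in P3E3 and held 0.824 to 2.98 normalized counts in all 6 P3D8 libraries. Wnt5a fell by 1.14 in P3E3 (limma adjusted p = 0.00477) and was higher in P3D8/BMP9 than in P3E3/BMP9 by 1.41 (limma adjusted p = 0.00250). Hdac1, which Trps1 binds in mouse chondrocytes, rose by 0.54 and 1.26.

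Of 8 related zinc finger factors 4 were tested. In P3D8 cartilage none rose and 3 fell, and in P3E3 1 rose and 2 fell. Klf5 fell from 454 to 545 normalized counts to 5.97 to 15.0 in P3D8 and from 390 to 457 to 7.44 to 20.6 in P3E3 (log2 -5.46 and -5.08). Klf4 fell by 2.74 and by 1.44. Egr1, an immediate early factor, fell by 0.89 in P3D8 and rose by 0.84 in P3E3 (limma adjusted p = 0.00427 and 0.00590). Gata2, the tested member of the GATA family to which Trps1 is related, did not pass in any comparison (log2 from -0.05 to 0.15).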

How the data were processed

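RNA of 2 clonal lines in 4 groups of 3 libraries was sequenced with paired ends. The authors used HISAT2 for alignment to the mm10 build and htseq-count for counts per RefSeq transcript, and divided these by DESeq2 size factors set together with other cartilage data. These deposited signal values, normalized counts, were the input here. Versions, strand setting and annotation are not given in the sources used here. A second deposited table, holding the authors' fold changes, FDR p values and group means for P3D8/BMP9 against P3E3/BMP9, was not used.

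In each library 100% of values were whole multiples of 1 step within 0.01 reads, which gave back the reads. Rows of a symbol were summed. limma 3.58.1 in R 4.3.3 (trend in the prior variance) was fitted to log2(normalized count + 1) of the 5294 genes with a mean of at least 10 over 12 libraries, in 1 model of 4 groups. Tests were two-sided and calls were made at a Benjamini-Hochberg adjusted p under 0.05 over all genes tested. Fold changes on this scale understate those of low genes. An exact permutation test of 3 against 3 cannot go below 0.10 and was not used. Floors of 3 reads cover counting error only, since reads are not independent molecules. The 95% intervals are those of limma, from the spread between libraries.

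Members under the minimum were read from the same fit with no minimum and from edgeR 4.0.16 on recovered reads. With the same 5294 genes edgeR called 4022, 4214, 2669, 2658 and 2307 genes, and limma 4041, 4219, 2666, 2638 and 2445, for the P3D8 response, the P3E3 response, the cartilages, the monolayers and the difference of responses. DESeq2 1.42.0, TMM scaling, a pseudocount of 5, the most counted transcript, a replicate block, fits on 6 libraries and leaving out libraries were further alternatives. On data simulated for the P3D8 response over 5294 genes, limma called 91% of genes changed by a log2 of 1, 100% by 2 and 0.216% of 5094 unchanged genes. The simulation changed only 100 genes by each size, drawn from the better counted ones, while limma called 4041 genes in the real data. The adjusted p depends on the share of changed genes. These rates therefore do not carry over to the real comparison, and its rate of false calls was not tested.

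The members, the partner lists and the marker lists were chosen with earlier results of these data known. All 10 members are named. Of each list the 3 called genes with the largest log2 change per comparison are named, and for each tested member the 3 genes closest in Pearson r. Sox9, Gata2, and the untested Hdac5, Hdac7 and Hdac9 are named outside this rule, after their values were seen. Promoter windows came from RefSeq (GRCm38.p6) and transcript structures from GENCODE vM21, paired by RefSeq accession.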

Additional observations from a re-analysis of the deposited data

Results flagged for a closer look

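The response of Trps1 to cartilage formation differed between the clones by 2.21 on the log2 scale (limma adjusted p = 0.0112), with a rise in P3D8 (1.16) and a fall in P3E3 (-1.05). Runx2 gave no such difference (0.62, limma adjusted p = 0.190). The Trps1 call was lost without the 4 libraries with conflicting entries (difference 2.07, limma adjusted p = 0.115). The study picked Trps1 from these same cartilage libraries, so its difference of responses is not independent evidence.

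By the same test of the difference itself, 23 named genes other than members passed. The response was larger, or fell less, in P3D8 for Msx2 (4.41), Gdf5 (1.63), Wnt5a (1.62), Nkx3-2 (1.52), Sik1 (1.49), Fosl2 (1.35), Hey1 (1.12), Ncor1 (0.90) and Twist1 (0.49). It was larger, or fell less, in P3E3 for Mgp (-9.40), Mmp13 (-4.36), Ihh (-3.34), Panx3 (-3.08), Sost (-2.34), Pthlh (-2.18), Egr1 (-1.72), Klf4 (-1.30), Mmp9 (-1.29), Epas1 (-1.27), Dynll1 (-0.92), Hdac1 (-0.72), Twist2 (-0.67) and Nedd4 (-0.63). With edgeR on the reads of genes with a mean of at least 1 the difference did not pass for Msx2 (adjusted p = 0.897), Ihh (0.722), Gdf5 (0.263) and Hey1 (0.0556). Msx2 had no read in P3E3 monolayers. Gdf5 held few counts in every P3D8 library, as given above, so it could hardly fall there and its value reflects the fall in P3E3. Panx3 and Sost had no read in any monolayer library. Their limma values thus equal their differences between the cartilages and measure no separate response. For these genes edgeR (adjusted p = 1.00 for both) cannot decide, having no monolayer reads to set a fold change against. Msx2, Gdf5, Ihh, Mmp13 and Sost are among the genes that the study picked from these libraries. The cause of the differences was not tested.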

How the results depend on the processing

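The number of tested members called was 2 for the P3D8 response, 2 for the P3E3 response, 2 between cartilages, 0 between monolayers and 1 for the difference of responses. Without the 4 libraries with conflicting entries these were 1, 1, 0, 0 and 0, which leaves 2 libraries in each group. With no minimum 6315 genes were called for the P3D8 response against 4041, and 62.3% of them were higher against 49.3%. edgeR with a mean of at least 1 called 4 members for the P3E3 response, Runx3 and Sp7 being the further ones. Leaving out 1 library at a time gave 1 to 2 members for either response and 0 to 2 between cartilages, and the Runx2 difference between monolayers ranged from -0.15 (without P3E3 monolayer replicate 2) to 0.26.

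Same-numbered libraries of different groups had correlations of their deviations from -0.299 to 0.245 over 18 pairs, 3 of them over 0.1, so the numbers were not taken to pair the cultures. With the replicate block 1 member was called for the P3E3 response (Trps1 adjusted p = 0.0651 in limma) and 1 between cartilages (Runx2 adjusted p = 0.0524 in limma). The transcript rows of the members had 7 calls over the 5 comparisons, 10 with no minimum, 6 with the replicate block and 5 to 7 on leaving out a library. Of 2083 values of members and named genes under an alternative, 24 of Runx2 or Trps1 and 80 of 17 other genes lost the call, and 1 reversed. Members under the minimum had 0 to 62 reads in all.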
